A study of Mus musculus with 9 samples.

Results

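The genes described were those of the voltage-gated sodium channels (Scn), the voltage-gated calcium channels (Cacn), the hyperpolarisation-activated cation channels (Hcn) and the potassium channels (Kcn), pores and auxiliary subunits alike. They were found by gene symbol in the deposited gene table, leaving out the 4 G protein-gated inward rectifiers Kcnj3, Kcnj5, Kcnj6 and Kcnj9 and symbols that end in os or -ps. The rule gave 136 genes of 47729 listed. Of these, 133 are protein-coding and 3 are non-coding RNAs that the symbol pattern also matches (Kcnmb4os1, Kcnmb4os2 and Kcnq1ot1).

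The transcripts were counted in midbrain dopamine (DA) neurons of C57/Bl6 mouse embryos at stage E15.75. Every embryo carried a Pitx3-Cre allele, which drives Cre recombinase from the Pitx3 locus of midbrain DA neurons, and a Rosa-lox-stop-lox-Yfp reporter, so that cells which had expressed Cre were sorted by their fluorescence and each library pooled several embryos. The genotypes differed in Dot1l, the methyltransferase of lysine 79 of histone H3: Dot1l(+/+) embryos had no floxed allele, Dot1l(fl/+) embryos had 1 and Dot1l(fl/fl) embryos had 2. Of the 9 samples in the labels 8 were used, with 3 libraries each of Dot1l(+/+) and Dot1l(fl/+) and 2 of Dot1l(fl/fl), whose replicate 3 is not analysed here. The study's methods state that embryos of the 3 genotypes were matched by mother before pooling, but the labels do not say that libraries with the same replicate number share litters. The p-values measure the spread between these pools of embryos.

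Voltage-gated channels open and close with membrane voltage. Sodium channels carry the upstroke of the action potential, calcium channels bring in the calcium that triggers transmitter release and gene regulation, and potassium channels repolarise the cell and set its resting potential. Mature midbrain DA neurons fire on their own at a slow and regular pace, and calcium channels of the Cacna1d type, HCN channels, A-type potassium channels of Kcnd3 with Kcnip subunits, and calcium-activated Kcnn3 channels are known to shape that rhythm.

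Library totals ran from 13616922 to 43674673 counts, lowest in Dot1l(fl/fl) by label, and a count of 0 allows up to 3 counts, which was 0.0694 to 0.216 CPM (counts scaled to a common library size) across libraries, for counting error only. Dot1l itself was at 105, 84.6 and 94.6 CPM in Dot1l(+/+), 75.5, 65.6 and 76.2 in Dot1l(fl/+), and 64.9 and 99.1 in replicates 1 and 2 of Dot1l(fl/fl). The library labelled Dot1l(fl/fl) 2 thus lay within the Dot1l(+/+) range for the targeted gene. Counts per gene sum all exons and do not resolve the floxed one, so they do not check the deletion, and every Dot1l(fl/fl) value below belongs to libraries so labelled. The DA markers listed were present in all libraries, with a summed level of 6343 to 7247 CPM in Dot1l(+/+), 6335 to 6777 in Dot1l(fl/+) and 5095 to 6157 in Dot1l(fl/fl), where 7 of 11 were lower at an unadjusted p under 0.05 (5.03% of all genes tested were lower at that p, and 4.24% higher). Immediate early genes, which respond to dissociation, summed to 985 to 1133, 946 to 1187 and 1302 to 1317 CPM, with 6 of 10 higher in Dot1l(fl/fl) at that p. The GABAergic list summed to 204 to 226 CPM in Dot1l(+/+), 197 to 234 in Dot1l(fl/+) and 236 to 265 in Dot1l(fl/fl), with 1 of 7 higher, and the blood list to 13.9 to 18.1 in Dot1l(+/+), 11.95 to 19.4 and, in Dot1l(fl/fl), up to 40.9 CPM, with 2 of 7 tested higher and 4 of 9 genes under 1 CPM in every library, among them Hba-x, Alas2 and Slc4a1. The astrocyte list summed to 307 to 446 CPM in Dot1l(+/+), 331 to 377 in Dot1l(fl/+) and 294 to 304 in Dot1l(fl/fl), with 1 of 3 tested lower and its defining markers Aqp4 and Gfap under 1 CPM everywhere. The endothelium list summed to 6.49 to 10.3, 4.402 to 17.5 and 10.3 to 12.6 CPM, with 1 of 7 tested higher and Flt1 and Ly6c1 under 1 CPM everywhere. Lists without a gene called in Dot1l(fl/fl) at that p were present too. In Dot1l(+/+) the radial glia and progenitor list summed to 223 to 264 CPM and the microglia list to 109 to 139. The glutamatergic list summed to 176 to 213 CPM there, with Slc17a7 under 1 CPM everywhere. The serotonergic list summed to 260 to 324 CPM, with Tph2 and Fev under 1 CPM everywhere. The part of these lists in the channel gene values was not tested, and in sorted pools fewer cells of a type and less RNA per cell cannot be told apart.

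Most of the channel genes had counts at this age, though many were low. Of the 136 genes, 111 passed the filter on low counts, 103 had counts in all 8 libraries, 65 reached a mean of 10 CPM in Dot1l(+/+) and 17 a mean of 100 CPM. A further 18 had counts without passing, none above 1.31 CPM in any library. The other 7, Cacng6, Kcna7, Kcna10, Kcne1, Kcnk7, Kcnk18 and Kcnmb1, were listed at 0 in every library. Among the 18 was Kcna1, and Kcnq1 was there too, while Kcnq1ot1, the RNA transcribed antisense within Kcnq1, was at 6.15 to 23.5 CPM; the strand setting of the counting is not given in the sources used here, so reads of such a pair cannot be assigned with certainty.

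Levels between genes were compared as CPM per kilobase of exon, in Dot1l(+/+) (mean ± SD, n = 3). The highest was Scn3b, a beta subunit that modulates sodium channel gating, at 135 ± 6.76. Then came Cacng4, an auxiliary subunit of AMPA-type glutamate receptors despite its calcium channel name, at 93.7 ± 4.46, and Cacnb3, a beta subunit that traffics calcium channels to the membrane, at 75.1 ± 4.52. By mean, auxiliary subunits thus held the first 5 places, with Cacng7 at 40.2 ± 1.71 and Cacnb1 at 34.3 ± 2.87 next. The first pore was Kcnd3, which carries A-type potassium current, at 31.0 ± 4.24, with lower levels for the pores Hcn3 at 25.6 ± 1.68, the embryonic sodium channel Scn3a at 22.7 ± 2.62 and the N-type calcium channel Cacna1b at 21.6 ± 5.11. The library ranges overlapped for Cacnb1 and Kcnd3, for Kcnd3 and Hcn3, for Hcn3 and Scn3a, and for Scn3a and Cacna1b. The order within each of these pairs is not resolved.

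**Figure D1:**
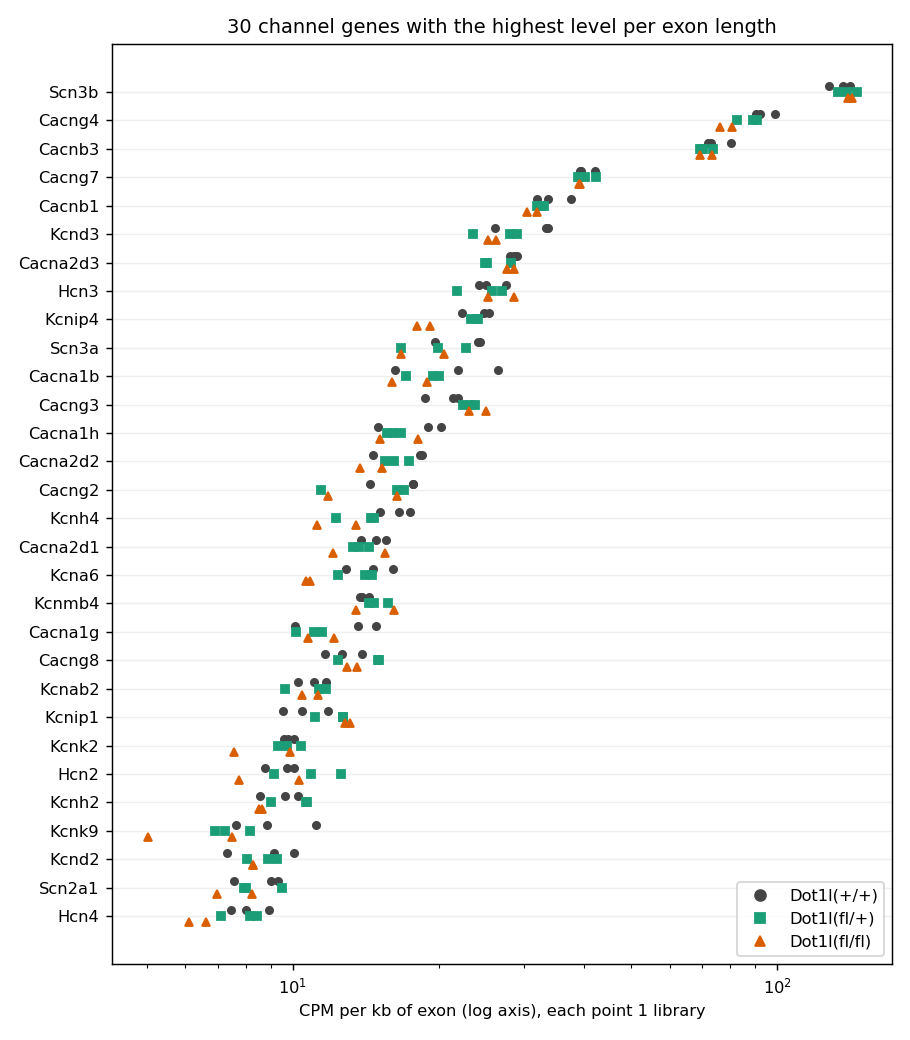
Levels of the 30 channel genes with the highest Dot1l(+/+) mean among those reported here, as CPM per kilobase of exon on a log axis, with each point 1 library (circles Dot1l(+/+), squares Dot1l(fl/+), triangles Dot1l(fl/fl)). Scn3b, Cacng4 and Cacnb3 stand above the rest, and for most genes the genotypes lie within each other's range.

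Within families the levels were uneven. Kcnip4, a calcium-binding subunit of A-type channels, led the auxiliary potassium subunits at 24.2 ± 1.59 CPM per kilobase, with Kcnip1 at 10.6 ± 1.15. Inward rectifiers outside the excluded genes were low throughout: Kcnj12 led with 7.15 to 7.94 CPM in Dot1l(+/+), and Kcnj11, the pore of the ATP-sensitive channel, was at 6.45 to 7.54. Its partner Abcc8 was at 4.47 to 11.2 CPM in Dot1l(+/+). Kcnj8, a pericyte gene, was at 0.139 to 0.370 CPM in Dot1l(+/+) and at 0 in both Dot1l(fl/fl) libraries, near the floor, so no fold change is given; 5 of the 9 pericyte and smooth muscle markers, Kcnj8 among them, stayed under 1 CPM everywhere. Kcnk9, an acid-sensitive background potassium channel that is expressed from the maternal allele, was at 9.21 ± 1.79 CPM per kilobase, beside Kcnk2, another tandem-pore channel, at 9.79 ± 0.24.

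Setting Dot1l(fl/fl) against Dot1l(+/+) asked which channel transcripts differed when both alleles were floxed. No channel gene passed an adjusted p of 0.05 in edgeR's quasi-likelihood test, and neither did any of the 17988 genes tested (0.0%). At an unadjusted p under 0.05, 16 channel genes (14.4%) were lower, against 5.03% of all genes tested. At the same p, 1 (0.901%) was higher, against 4.24% of all genes. The median log2 fold change over the 111 channel genes tested was -0.13, against -0.00 over all genes, and 73 of the 111 were below 0 (65.8%, against 50.4%). Setting the 2 genes that were at 0 in a whole genotype (Kcnj8 and Kcnv2) at their floor left that median at -0.13. These 2 lie far out on opposite sides of the median, so the step could hardly move it and does not test it. Among genes at a mean of 10 CPM or more, 53 of 65 channel genes (81.5%) were below 0, against 51.3% of 9953 genes, with a median of -0.15. Both Dot1l(fl/fl) libraries lay below all 3 Dot1l(+/+) libraries in 17 channel genes (15.3%, against 11.6% of all genes) and above them in 6 (5.41%, against 12.1%). With DESeq2, 3 channel genes (2.70%) passed an adjusted p of 0.05 as lower, against 0.928% of all genes. Both shares count genes to which DESeq2 gave no adjusted p as not passing, among them Hcn4, Kcnab1, Kcnma1, Kcnn1 and Kcnq3. The 3 that passed were Kcna6 (adjusted p = 0.0350 in DESeq2), Kcnip4 (0.0379) and Kcnk9 (0.0379).

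These 3 genes are described first. Kcnip4 was at 92.3, 89.8 and 81.2 CPM in Dot1l(+/+), 84.7, 87.5 and 87.0 in Dot1l(fl/+), and 69.6 and 65.4 in Dot1l(fl/fl). Both Dot1l(fl/fl) libraries were below all others, while Dot1l(fl/+) lay inside the Dot1l(+/+) range. The log2 fold change against Dot1l(+/+) was -0.38 ± 0.12 (SE, unadjusted p = 0.00443, adjusted p = 0.284 in edgeR). Kcna6, a delayed rectifier pore of the Shaker family, was at 87.1, 76.7 and 95.7 CPM in Dot1l(+/+), 86.8, 73.8 and 83.8 in Dot1l(fl/+), and 63.4 and 64.7 in Dot1l(fl/fl). It too was lowest in both Dot1l(fl/fl) libraries, at -0.43 ± 0.13 (unadjusted p = 0.00279, adjusted p = 0.268 in edgeR). Kcnk9 was at 109, 93.9 and 137 CPM in Dot1l(+/+), 84.9, 100 and 89.1 in Dot1l(fl/+), and 61.7 and 92.2 in Dot1l(fl/fl). Its Dot1l(fl/fl) libraries were both below Dot1l(+/+) but apart from each other, and the second overlapped Dot1l(fl/+). The difference was -0.56 ± 0.16 (unadjusted p = 0.00170, adjusted p = 0.248 in edgeR). Where a Dot1l(fl/fl) library is left out, 1 remains, so the spread in that fit comes from the other genotypes and the remaining library is assumed to vary like them. On that assumption, leaving out the library labelled Dot1l(fl/fl) 2 gave -0.88 ± 0.17 (adjusted p = 0.0198 in edgeR) and leaving out Dot1l(fl/fl) 1 gave -0.30 ± 0.16 (unadjusted p = 0.0791 in edgeR). Over all alternatives the adjusted p ran from 0.0379 to 0.755 for Kcnip4, from 0.0350 to 0.799 for Kcna6 and from 0.00874 to 0.799 for Kcnk9.

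Kcnip4 lies on chromosome 5 from 48389502 to 49524907, Kcna6 on chromosome 6 from 126708329 to 126740674 and Kcnk9 on chromosome 15 from 72501089 to 72546340, on GRCm38 and all on the minus strand. Kcnip4 spans 1135406 bp for 3627 bp of exon, Kcna6 32346 bp for 5945 and Kcnk9 45252 bp for 12300. The 100 bases before a RefSeq start site (GRCm38.p6) are shown for Kcnip4 and Kcna6, to show how unlike such stretches are. Beside them stand those of Hcn4 and Kcnd3, which were lower too, and of Kcnip1, the channel gene that was higher. Capitals mark CG dinucleotides. Kcnip4 (chr5:49285660-49285759 on the minus strand) has 2 start sites listed and Kcnip1 (chr11:33993194-33993293 on the minus strand) has 3, of which 1 is shown. The Kcnip4 stretch lies inside the gene span given above, and which start site these neurons use was not tested. The others are Kcna6 (chr6:126740675-126740774 on the minus strand), Hcn4 (chr9:58822849-58822948 on the plus strand) and Kcnd3 (chr3:105451790-105451889 on the plus strand).
Kcnip4: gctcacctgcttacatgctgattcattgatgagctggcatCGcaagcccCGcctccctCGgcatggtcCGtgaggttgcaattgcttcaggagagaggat
Kcna6: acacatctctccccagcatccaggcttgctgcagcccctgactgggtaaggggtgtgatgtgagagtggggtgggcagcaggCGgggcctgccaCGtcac
Hcn4: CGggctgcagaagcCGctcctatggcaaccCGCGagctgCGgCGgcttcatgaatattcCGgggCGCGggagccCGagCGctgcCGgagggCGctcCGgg
Kcnd3: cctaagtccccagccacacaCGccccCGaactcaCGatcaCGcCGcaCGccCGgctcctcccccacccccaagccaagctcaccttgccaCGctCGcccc
Kcnip1: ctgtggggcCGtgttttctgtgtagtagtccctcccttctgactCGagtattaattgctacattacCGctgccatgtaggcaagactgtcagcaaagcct

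The printed stretches hold 4, 2, 14, 9 and 3 CG dinucleotides in that order, and the windows described next hold 7, 8, 31, 25 and 7. Among the genes that were lower, Kcnip4 and Kcna6 thus lay near the median of all windows and Hcn4 and Kcnd3 above it. Over windows from 250 bases before to 50 after the start, channel promoters (133 windows of 98 genes matched by symbol) held a median of 9 CG dinucleotides, against 7 in 32851 windows of all genes. The 112 windows of 78 channel genes that were tested held a median of 11.5. The 16 windows of 12 of the genes that were lower held a median of 12, near that value. The letters GGGCGG, the core of the GC box, were found on either strand in 45.9% of channel windows and 35.7% of all windows, and TATAAA in 4.51% and 13.6%. In the windows of the genes that were lower, GGGCGG was in 43.8% and TATAAA in 6.25%. These are letter matches and not measured binding sites.

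The other genes that were lower are given by role, each at an unadjusted p under 0.05 and an adjusted p between 0.331 and 0.532 in edgeR. Among potassium pores of the voltage-gated family, 28 of 35 tested were below 0 with a median of -0.16, and 5 were lower, Kcna6 included, against 50.4% below 0 and 5.03% lower over all genes. With the offset for exon length and GC content described below, 26 were below 0 and the median was -0.10. Kcnh4, of the ether-a-go-go-like group, was at 69.2, 59.9 and 65.7 CPM in Dot1l(+/+) and 44.4 and 53.3 in Dot1l(fl/fl), with no overlap (-0.41 ± 0.14). Kcnq3, a subunit of the M-type channel, was at 65.8, 46.3 and 55.9 CPM against 38.7 and 42.3 (-0.47 ± 0.19), and again the groups did not overlap. Kcnc1, a fast delayed rectifier, was at 78.7, 65.2 and 71.2 CPM against 57.6 and 57.5 (-0.32 ± 0.13), both below every other library. Kcnd3 was at 322, 251 and 320 CPM against 243 and 252 (-0.27 ± 0.12), where Dot1l(+/+) 2 was as low as Dot1l(fl/fl). Kcnd2, another A-type pore, was at 37.7, 47.1 and 51.8 CPM against 42.7 and 42.6 (-0.10 ± 0.16). Kcna2 differed by -0.21 ± 0.21 and Kcnh2 by -0.15 ± 0.15.

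The auxiliary potassium subunits split. Besides Kcnip4, Kcnab1, a beta subunit that speeds inactivation, was lower at this p (34.3, 18.7 and 28.1 CPM against 24.4 and 12.1, -0.56 ± 0.26). It was named after its values were seen, and its Dot1l(fl/fl) libraries differ 2-fold: without Dot1l(fl/fl) 2 the difference was -0.15, without Dot1l(fl/fl) 1 it was -1.16, and without Dot1l(+/+) 1 it was -0.35. Kcnip1, a relative of Kcnip4 that also binds A-type pores, went the other way. It was at 59.3, 73.5 and 64.9 CPM in Dot1l(+/+), 68.9, 78.9 and 78.7 in Dot1l(fl/+), and 79.4 and 81.4 in Dot1l(fl/fl). Both Dot1l(fl/fl) libraries were above every other library (0.29 ± 0.13, unadjusted p = 0.0361, adjusted p = 0.494 in edgeR). The fit of the 2 genotypes alone gave an unadjusted p = 0.0558 in edgeR for Kcnip1.

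**Figure D2:**
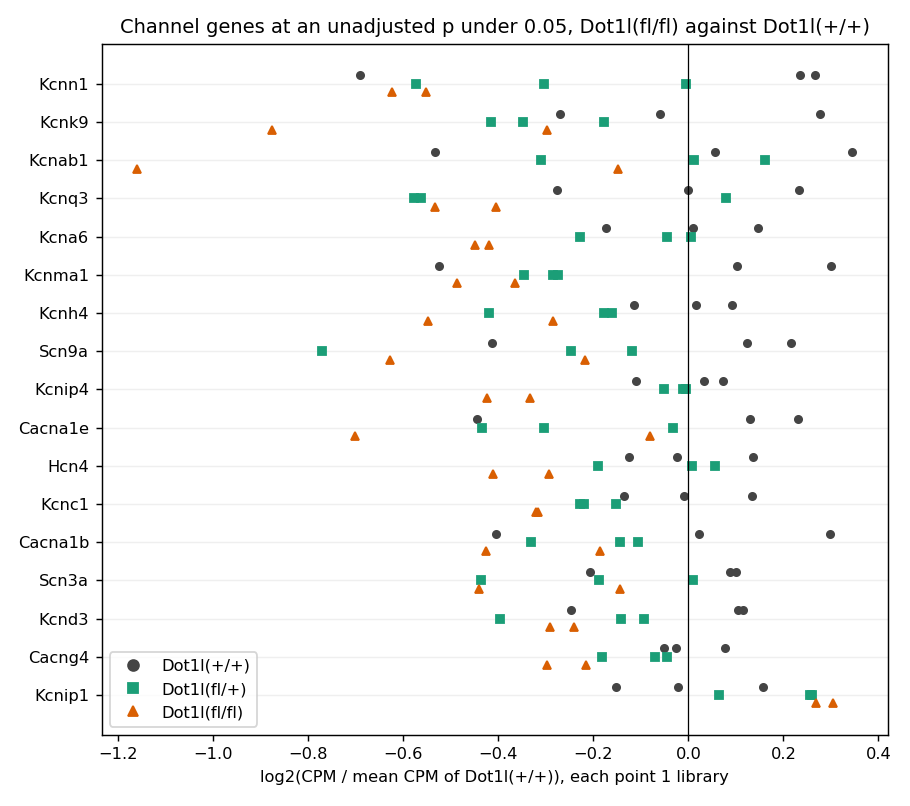
The 17 channel genes at an unadjusted p under 0.05 between Dot1l(fl/fl) and Dot1l(+/+), as log2 of the CPM over the Dot1l(+/+) mean, with each point 1 library (circles Dot1l(+/+), squares Dot1l(fl/+), triangles Dot1l(fl/fl)). For Kcnip4, Kcna6, Hcn4, Kcnc1 and Cacng4 the triangles lie left of every other point and for Kcnip1 right of them, while for Kcnn1, Scn9a and Kcnma1 a Dot1l(+/+) library lies among the triangles or beside them.

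All 9 calcium channel pores tested were below 0, with a median of -0.26, and 2 were lower at the unadjusted p, against 50.4% below 0 and 5.03% lower over all genes. Of the 9, 1 was near the floor, never above 0.683 CPM in a library. With the length and GC offset 5 of the 9 were below 0, the median was -0.07, and Cacna1a (0.17), Cacna1c (0.02), Cacna1g (0.03) and Cacna1h (0.07) were above 0. Cacna1b, which carries N-type current at release sites, was at 218, 162 and 263 CPM in Dot1l(+/+) against 160 and 188 in Dot1l(fl/fl) (-0.30 ± 0.14). Cacna1e, the R-type pore, was at 189, 127 and 203 CPM against 106 and 163 (-0.36 ± 0.17). In both genes Dot1l(+/+) 2 lay between the Dot1l(fl/fl) libraries. Without Dot1l(fl/fl) 1 the difference was -0.19 for Cacna1b and -0.08 for Cacna1e, without Dot1l(fl/fl) 2 it was -0.43 and -0.70, without Dot1l(+/+) 2 it was -0.47 and -0.54, and without Dot1l(+/+) 3 it was -0.13 and -0.23. The L-type pore Cacna1d was at 63.7, 32.4 and 58.5 CPM against 35.5 and 42.9 (-0.40 ± 0.20, unadjusted p = 0.0648 in edgeR). The P/Q-type pore Cacna1a differed by -0.04 ± 0.15, the L-type pore Cacna1c by -0.21 ± 0.16 and the T-type pore Cacna1g by -0.17 ± 0.14. Of the genes named as calcium channel auxiliaries, Cacng4, the AMPA receptor subunit described above, was lower, at 329, 323 and 353 CPM against 288 and 273 (-0.26 ± 0.10), without overlap. Its Dot1l(fl/+) libraries were at 325, 319 and 295 CPM, also above Dot1l(fl/fl). Cacna2d1, Cacna2d3, Cacnb3, Cacnb4 and Cacng2 lay between -0.23 and 0.00, none at an unadjusted p under 0.05.

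Sodium channel pores were below 0 in 6 of 8 tested (median -0.24), and 2 were lower at the unadjusted p, against 50.4% below 0 and 5.03% lower over all genes. With the length and GC offset 5 were below 0 and the median was -0.13. Scn3a was at 300.2, 245 and 303 CPM against 208 and 256 (-0.29 ± 0.13), and Scn9a at 90.6, 58.5 and 84.9 CPM against 50.5 and 67.0 (-0.41 ± 0.19). In both, Dot1l(+/+) 2 lay between the Dot1l(fl/fl) libraries. Without Dot1l(fl/fl) 1 the difference was -0.15 for Scn3a and -0.22 for Scn9a, and without Dot1l(fl/fl) 2 it was -0.44 and -0.63. Scn2a (listed as Scn2a1) was at 119, 96.4 and 115 CPM against 88.7 and 105 (-0.19 ± 0.13), Scn8a differed by -0.09 ± 0.17 and Scn1a by 0.13 ± 0.22. The beta subunit Scn3b was at 771, 699 and 746 CPM against 766 and 779 (0.07 ± 0.08), so the most abundant channel transcript stayed within 0.1 of 0 on the log2 scale.

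Among the remaining families, Hcn4, the slow pacemaker channel of heart and brain, was lower at 48.9, 45.6 and 54.6 CPM against 40.6 and 37.4 (-0.35 ± 0.15), without overlap, while Hcn2 (-0.07 ± 0.18) and Hcn3 (0.08 ± 0.12) were not. Of the calcium-activated potassium channels, Kcnma1, the large-conductance pore, was at 36.9, 23.9 and 42.4 CPM against 24.5 and 26.7 (-0.43 ± 0.20). Kcnn1, a small-conductance pore, was at 20.6, 20.1 and 10.6 CPM against 11.1 and 11.7 (-0.58 ± 0.27). In each, 1 Dot1l(+/+) library was below both Dot1l(fl/fl) libraries, and for Kcnma1 the difference was -0.25 without Dot1l(+/+) 3. Kcnn3, the small-conductance pore of DA neurons, was at 53.9, 40.5 and 45.5 CPM against 36.3 and 38.1, which did not overlap (-0.33 ± 0.17, unadjusted p = 0.0643 in edgeR), and the beta subunit Kcnmb4 differed by 0.08 ± 0.14. Of the tandem-pore channels 5 of 10 tested were below 0, against 50.4% over all genes. Kcnk2 differed by -0.16 ± 0.15 and Kcnk3 by -0.22 ± 0.26. Of the 8 inward rectifiers tested 2 were below 0, against 50.4% over all genes, and Kcnj8, near the floor, was among the 2. Kcnj11 was at -0.05 ± 0.32 and Kcnj12 at 0.21 ± 0.29.

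Channel genes are long, and the libraries differed in how level moved with length. The 111 genes tested had a median exon length of 5152 bp and a median span of 56018 bp, against 3827 bp and 18542 bp over all genes tested, and the 16 that were lower had 9523 bp and 132700 bp. Across 13185 genes, log2 CPM was taken relative to each gene's mean over all libraries. Its slope per doubling of exon length was 0.05, -0.02 and 0.08 in Dot1l(+/+), 0.01, 0.01 and -0.05 in Dot1l(fl/+), and -0.06 and -0.01 in Dot1l(fl/fl). The median channel gene, as log2 CPM minus the Dot1l(+/+) mean, was 0.06, -0.12 and 0.04 in Dot1l(+/+), -0.03, -0.05 and -0.09 in Dot1l(fl/+), and -0.19 and -0.13 in Dot1l(fl/fl). Dot1l(+/+) 2 thus lay close to Dot1l(fl/fl) 2 by both measures.

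**Figure D3:**
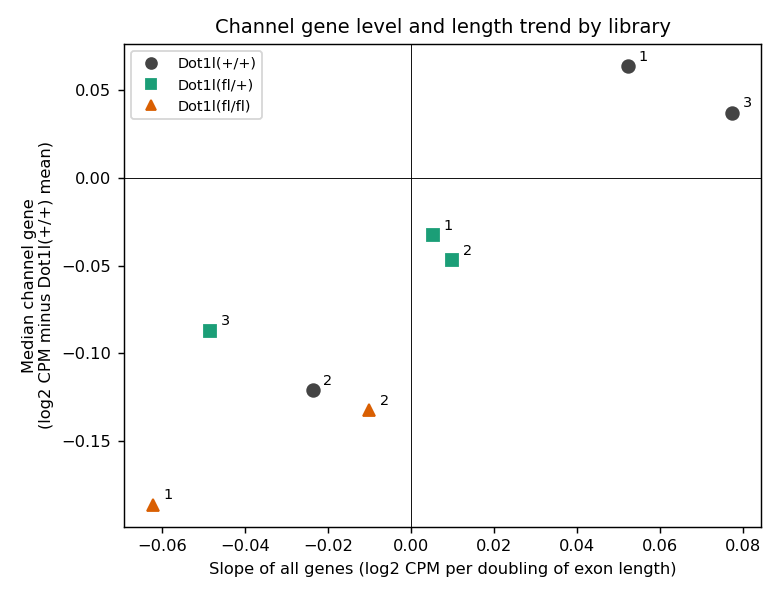
The median channel gene of each library (vertical axis, log2 CPM minus the Dot1l(+/+) mean) against the slope of all genes with exon length (horizontal axis, log2 CPM per doubling), with 1 point a library and its replicate number beside it. The Dot1l(+/+) libraries 1 and 3 lie at the upper right, and Dot1l(+/+) 2 lies at -0.12, beside Dot1l(fl/fl) 2 at -0.13.

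When each library was given an offset for the length and GC content of exons, 5 channel genes (4.50%) were lower at an unadjusted p under 0.05, against 3.96% of all genes, a share near the background. They were Kcnip4 (-0.46), Kcnk9 (-0.43), Kcna6 (-0.36), Kcnh4 (-0.35) and Cacng4 (-0.26). Kcnip1 was higher at 0.32. The median over channel genes was then -0.06. Among the 55 tested genes with the longer exons the median went from -0.19 to -0.07 and the genes lower from 12 to 2, and among the 56 shorter ones the median went from -0.06 to -0.05 and the genes lower from 4 to 3. With the offset and a replicate block together, 10 of the 16 stayed lower at that p. Kcnab1, Kcnn1, Kcnq3, Scn3a and Scn9a were then among them. The share over all genes was not taken for that fit. The sign of each of the 17 genes was the same under all alternatives run. The genes were picked by the main fit and the alternatives reuse its libraries, so equal signs are no further support. Sizes did change: Cacna1b ran from -0.47 without Dot1l(+/+) 2 to -0.04 with the replicate block and the offset together. The length trend moved with genotype and with single libraries, and the 2 cannot be told apart here.

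**Figure D4:**
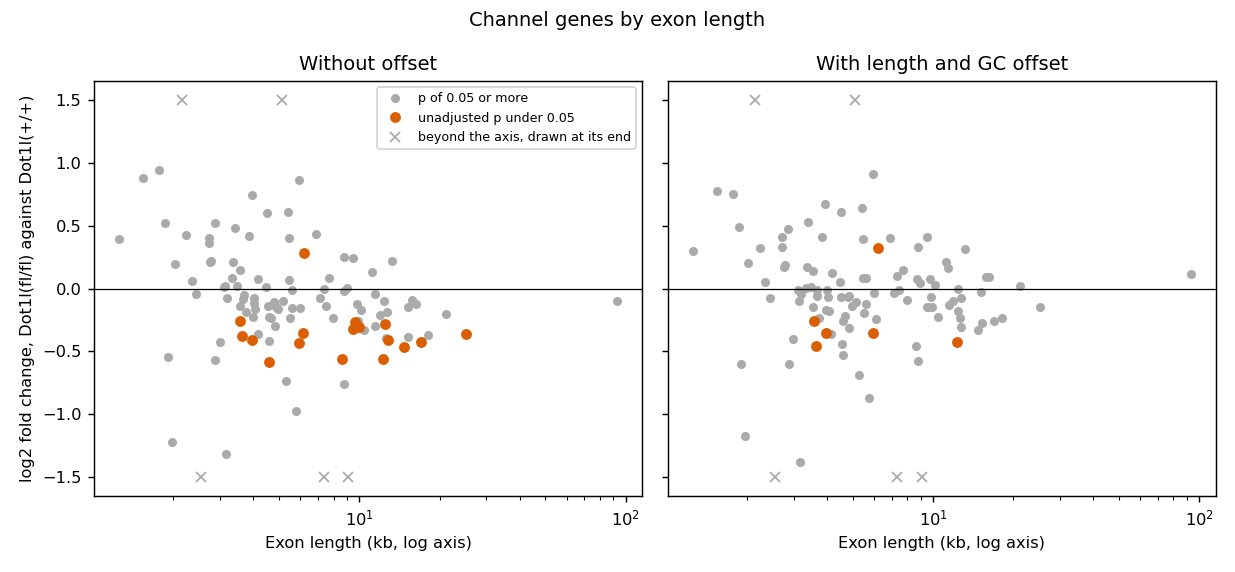
The log2 fold change of the 111 channel genes tested, Dot1l(fl/fl) against Dot1l(+/+), by exon length on a log axis, without (left) and with (right) the offset for length and GC content; orange points have an unadjusted p under 0.05 and crosses lie beyond the axis. On the left 16 genes are lower and 1 higher, and on the right 5 are lower and 1 higher.

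The count also depended on single libraries. It was 25 without Dot1l(+/+) 2 (22.9%, against 7.27% of all genes), 6 without Dot1l(+/+) 1 (5.45%, against 3.67%) and 7 without Dot1l(+/+) 3 (6.31%, against 3.02%). Without Dot1l(+/+) 1 the 6 were Cacng4, Hcn4, Kcna6, Kcnh4, Kcnip4 and Kcnk9, and without Dot1l(+/+) 3 the 7 were Kcna6, Kcnc1, Kcnh4, Kcnip4, Kcnk9, Kcnn1 and Kcnq3. Without Dot1l(fl/fl) 1 it was 7 (6.03%, against 4.17%), 5 of them among the 16 (Cacng4, Hcn4, Kcna6, Kcnab1 and Kcnip4). Leaving out the library labelled Dot1l(fl/fl) 2 gave 16 (13.6%, against 6.61%), 10 of them the same, with a median of -0.20. In these last 2 fits the spread again comes from the other genotypes. Kcna6 and Kcnip4 were lower at an unadjusted p under 0.05 in the 3 fits that leave out a Dot1l(+/+) library and, on that assumption, in the other 2.

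**Figure D5:**
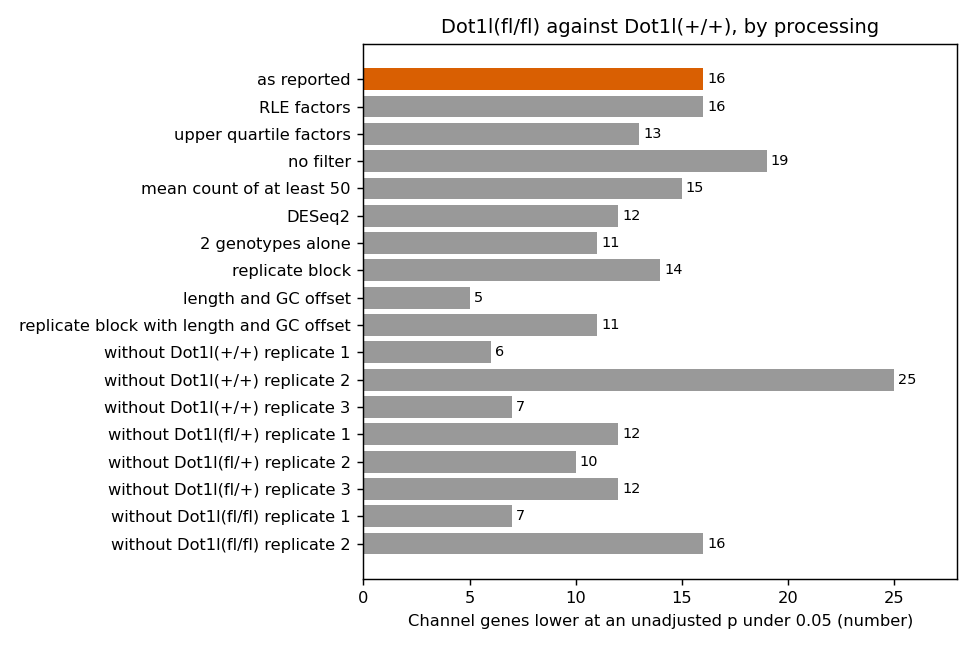
The number of channel genes lower in Dot1l(fl/fl) than in Dot1l(+/+) at an unadjusted p under 0.05 as reported (orange, 16) and under each alternative (grey). It runs from 5 with the length and GC offset to 25 without Dot1l(+/+) 2.

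The contrast of Dot1l(fl/+) against Dot1l(+/+), which shares its controls with the one above, asked the same of a single floxed allele. No channel gene passed an adjusted p of 0.05 in edgeR (0.0% of all genes) or in DESeq2 (0.0% of all genes lower). At an unadjusted p under 0.05 in edgeR, 5 of 111 (4.50%) were lower, against 2.86% of all genes, and none was higher, against 2.16%. The median was -0.08, against -0.01 over all genes, and 71 were below 0 (64.0%, against 51.0%). All 3 Dot1l(fl/+) libraries lay below all Dot1l(+/+) libraries in 6 channel genes (5.41%, against 5.97% of all genes) and above them in 1 (0.901%, against 5.56%), shares near or below the background. Kcna3, a delayed rectifier named after its values were seen, was at 8.45, 5.98 and 15.6 CPM in Dot1l(+/+) and 5.58, 4.22 and 4.604 in Dot1l(fl/+), without overlap (-1.06, unadjusted p = 0.00293 in edgeR). Dot1l(fl/fl) was at 5.36 and 8.42 CPM.

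Cacna1d, Scn9a and Kcnk9 were also lower at this p: Cacna1d (39.3, 41.0 and 38.6 CPM in Dot1l(fl/+), -0.38), Scn9a (71.8, 65.8 and 45.7 CPM, -0.35) and Kcnk9 (-0.31), and in each the Dot1l(+/+) range overlapped Dot1l(fl/+). For Kcnk9 and Scn9a the Dot1l(fl/fl) value against the same controls was lower at that p as well. For Kcna6, Kcnip4 and Hcn4 it was -0.09, -0.02 and -0.04 in Dot1l(fl/+), none at that p. Without Dot1l(+/+) 2, 17 channel genes (15.6%) were lower in Dot1l(fl/+), against 4.55% of all genes.

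Dot1l(fl/fl) was then compared with Dot1l(fl/+). No channel gene passed an adjusted p of 0.05 in edgeR (0.0% of all genes) or in DESeq2 (0.00556% of all genes lower). At an unadjusted p under 0.05 in edgeR, 3 channel genes (2.70%) were lower, against 2.16% of all genes, and 2 (1.80%) were higher, against 1.86%. Among those lower were Kcnip4 (-0.36, unadjusted p = 0.00687) and Kcna6 (-0.35, unadjusted p = 0.0131), both edgeR values. Among those higher was Kcne1l, an auxiliary subunit gene now named Kcne5 and named here after its values were seen (1.06, unadjusted p = 0.0364 in edgeR), at 1.44 to 3.48 CPM in Dot1l(fl/+) and 5.85 and 4.10 in Dot1l(fl/fl). The median over the 111 genes was -0.06, with 65 below 0 (58.6%, against 49.8%). In 13 both Dot1l(fl/fl) libraries lay below all Dot1l(fl/+) libraries (11.7%, against 9.57% of all genes) and in 3 above them (2.70%, against 10.2%).

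Partners of the channels were read from a list of 31 genes, of which 30 were found and 27 tested: scaffolds, cytoplasmic modulators, the subunits of the leak channel, calmodulins and Rest, a repressor of neuronal genes. In Dot1l(fl/fl) against Dot1l(+/+), 3 were lower and 2 higher at an unadjusted p under 0.05, against 5.03% and 4.24% of all genes. Lower were the axon initial segment scaffold Ank3 (615, 502 and 704 CPM against 470.1 and 550, -0.25), its relative Ank2 (392, 311 and 418 against 281 and 298, -0.37) and Cachd1, which modulates calcium channels (123, 93.3 and 136 against 97.5 and 87.5, -0.34). Among those higher was the calcium sensor Calm2 (473, 568 and 481 against 613 and 650.3, 0.32). For Ank2 and Calm2 the groups did not overlap. In Dot1l(fl/+) against Dot1l(+/+), Calm2 was higher (0.21) and Abcc9 lower at that p, the latter at 0.105 to 0.738 CPM in Dot1l(fl/+), and none of the 27 differed at that p between Dot1l(fl/fl) and Dot1l(fl/+). Dpp6, a transmembrane partner of A-type channels at 532 to 648 CPM over all libraries, differed by -0.12 ± 0.09 in Dot1l(fl/fl) and Dpp10, its relative, by 0.23 ± 0.11 (unadjusted p = 0.051 in edgeR). Nalcn, the sodium leak pore that depolarises DA neurons towards threshold, differed by 0.16 ± 0.13.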

How the data were processed

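RNA was sequenced from sorted midbrain DA neurons of mouse embryos. The authors deposited whole-number counts per Ensembl gene and library, not normalised; per the study's methods a strand-preserving kit was used and reads were mapped to GRCm38.p4, and the submitters' processing notes name bcl2fastq 2.17, Trimmomatic 0.30 and DESeq2 1.10.1. The aligner, the counting program and its strand setting are not given in the sources used here. A further 3 deposited tables hold the authors' comparisons (fold changes and p-values) and served only for gene symbols. Groups and replicate numbers came from sample titles. Replicates of a genotype differed beyond sampling noise (chi-square per degree of freedom 16.98 to 40.47).

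Counts were tested with edgeR 4.0.16 under R 4.3.3 (TMM, filterByExpr, quasi-likelihood F test), with 3 genotypes in a single fit on 17988 genes, no covariate and Benjamini-Hochberg adjustment over all genes tested. CPM used TMM library sizes. GENCODE M21 on GRCm38 gave coordinates and union exon lengths for 98.9% of genes and all 136 channel genes, and promoters were RefSeq windows of GRCm38.p6. The scripts were tested on simulated counts. Alternatives were other size factors, no filter, a minimum mean count of 50, DESeq2 1.42.0, 2 genotypes alone, a replicate block, a length and GC offset (splines with 4 degrees of freedom) and each library left out. The members and lists were chosen with earlier results of these data known. Genes named were a fixed list of channels of DA neurons, those past an adjusted p of 0.05 by either tool, the leading genes of each family at an unadjusted p under 0.05 and the most abundant member of each family; others are marked. Some channel, partner and marker genes are counted but not reported here by name.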

Additional observations from a re-analysis of the deposited data

Results flagged for a closer look

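Kcnk3, an acid-sensitive background potassium channel, was at 14.5, 12.2 and 8.63 CPM in Dot1l(+/+), 13.2, 11.95 and 12.5 in Dot1l(fl/+), and 9.78 and 10.4 in Dot1l(fl/fl), by their labels. It is listed because every Dot1l(fl/+) library was above the Dot1l(+/+) mean and every Dot1l(fl/fl) library below it. All of them lay within the Dot1l(+/+) range, and neither genotype differed from Dot1l(+/+) at an unadjusted p under 0.05. The log2 fold change of Dot1l(fl/fl) against Dot1l(fl/+) was -0.32 ± 0.26 (SE, unadjusted p = 0.234 in edgeR's quasi-likelihood test), so a difference between them is not shown.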

How the results depend on the processing

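For Dot1l(fl/fl) against Dot1l(+/+), the median of channel genes was -0.055 with the length and GC offset, the genes lower at an unadjusted p under 0.05 were then 5, the genes higher were 2 without a filter, 0 in the fit of 2 genotypes alone and 3 with the replicate block and the offset together, and the genes past an adjusted p of 0.05 were 1 without a filter (Kcnk9) and 3 with DESeq2. With libraries left out in turn the median ran from -0.20 to -0.10, the genes lower from 6 to 25, the genes higher from 0 to 1 and those past the adjusted p from 0 to 1. For Dot1l(fl/+) against Dot1l(+/+), the genes lower were 12 without a filter and 3 with DESeq2, in the fit of 2 genotypes alone and with the offset, and the genes higher were 2 without a filter and 1 with the block and the offset; left-out libraries gave 2 to 17 lower, 0 to 2 higher and medians from -0.12 to -0.06. For Dot1l(fl/fl) against Dot1l(fl/+), the genes lower were 7 and the genes higher 1 without a filter, and left-out libraries gave 1 to 7 lower, 1 to 5 higher and medians from -0.09 to -0.02. The other medians and counts kept their direction and stayed within 1.5 times of the reported count or within the spread between libraries; the cause was not tested.

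Same-numbered libraries of different genotypes had correlations of -0.0381 to 0.0747 between their deviations, and differently numbered ones -0.132 to 0.111. The deviations were taken from means of 2 or 3 libraries, which ties them to each other. These values therefore cannot show whether litters are shared. The study's methods match the genotypes by mother, but no source gives which libraries share mothers, so the numbers were not taken to pair them. With the replicate block 14 channel genes were lower in Dot1l(fl/fl) than in Dot1l(+/+), 12 of them among the 16 (Cacna1b, Cacna1e, Hcn4 and Kcnma1 were not called), and the median was -0.11. Of 2334 values of named genes under the alternatives, none that was called reversed, 112 no longer passed the threshold, 90 moved by more than their spread, and 119 that had not been called changed sign.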
